A study of Gallus gallus with 15 samples.

Results

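The slow, cardiac and embryonic forms of the contractile apparatus were examined in the breast muscle of Jingyuan chickens. The list held 9 genes, namely the troponin genes TNNC1, TNNI1 and TNNT2, the tropomyosin gene TPM3, the calcium pump gene ATP2A2, the myosin genes MYH7, MYH7B and MYL4, and the myoglobin gene MB. They were taken by gene name from a list drawn up with earlier results of these data known. All 9 were found among the 23599 gene names of the expression table. Breast muscle was taken from 15 untreated hens of this breed, 5 each at 42, 126 and 180 days of age, raised on a single farm under shared conditions with free access to feed and water. Each library came from a separate bird. Levels were given as FPKM, fragments per kilobase of transcript scaled to all mapped fragments of a library. These values are per length, so that levels of different genes can be set side by side within a library. A gene was called on in a bird at 1 FPKM or more.

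Each sarcomere protein is encoded by several genes that are used in different fibres. Slow skeletal fibres and heart share a set of troponin, tropomyosin and myosin forms, and several cardiac forms are also made for a time by embryonic skeletal muscle before the adult fast forms replace them. The breast muscle of the chicken is a white muscle of mostly fast glycolytic fibres and holds little myoglobin, the oxygen-binding protein that colours red oxidative fibres. The comparison asked which of the slow, cardiac and embryonic forms were on in this muscle and whether their levels differed between the 3 ages.

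The labels name the tissue as breast and describe each sample as breast muscle, while 2 further labels read myoblast and primary cell. Contractile genes of differentiated muscle were abundant. The summed level of the 4 skeletal muscle markers found, TNNT3, TTN, NEB and MYOD1, lay between 4925.85 and 14003.88 FPKM in all 15 birds. Most of it was TNNT3, at 3883.65 to 12884.73 FPKM. MYOD1, a regulator rather than a contractile gene, was at 56.29 to 573.26 FPKM and was not counted with the myoblast markers. The 3 satellite cell and myoblast markers found, PAX7, MYF5 and MYOG, summed to 15.84 to 25.61 FPKM at 42 days, 5.02 to 11.41 FPKM at 126 days and 3.29 to 9.33 FPKM at 180 days. Heart muscle markers were near 0, with 6 of 9 listed genes found and sums between 0.20 and 3.22 FPKM. The correlation of log2 levels between birds had an r of 0.806 to 0.964. Replicate 1 of the 180-day-old hens stood furthest apart, followed by replicate 1 of the 126-day-old hens. The 6 macrophage markers summed to 1197.76 FPKM in the first of these birds, against at most 134.46 FPKM in the other birds of that age, and to 578.11 FPKM in the second. Most of both sums was CD74, at 1122.08 and 496.2 FPKM. In the first, the 4 B cell markers summed to 517.92 FPKM and the 8 T cell markers to 108.36 FPKM. Fewer cells of a type and less RNA per cell cannot be told apart in such bulk samples.

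The 9 genes spanned the whole range of expression in white breast muscle. TNNC1, TPM3 and ATP2A2 were on in 15 of 15 birds and MB in 14 of 15. TNNI1 reached 1 FPKM in 3 birds, all aged 42 days, and TNNT2 in 3 birds. MYH7, MYH7B and MYL4 were on in 0 birds. Averaged over the 15 birds, the levels ordered as TNNC1 at 2772 ± 862 FPKM, TPM3 at 35.5 ± 26.5 FPKM, MB at 23.5 ± 48.2 FPKM, ATP2A2 at 7.00 ± 2.92 FPKM, TNNI1 at 0.871 ± 1.40 FPKM, TNNT2 at 0.749 ± 0.701 FPKM, MYH7B at 0.284 ± 0.232 FPKM, MYL4 at 0.024 ± 0.0673 FPKM and MYH7 at 0.010 ± 0.020 FPKM (SD, n = 15).

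Only the step below TNNC1 had ranges that did not meet. TNNC1 was above TPM3 in 15 of 15 birds, and its lowest value of 1331.1 FPKM stood far over the highest TPM3 value of 111.38 FPKM. ATP2A2 was above TNNI1 in every bird, and MYH7B above MYL4 in every bird, although the ranges of both pairs met across birds. The other neighbours were not separated. TPM3 was above MB in 12 of 15 birds, MB above ATP2A2 in 6 of 15, TNNI1 above TNNT2 in 4 of 15 and TNNT2 above MYH7B in 12 of 15.

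**Figure D1:**
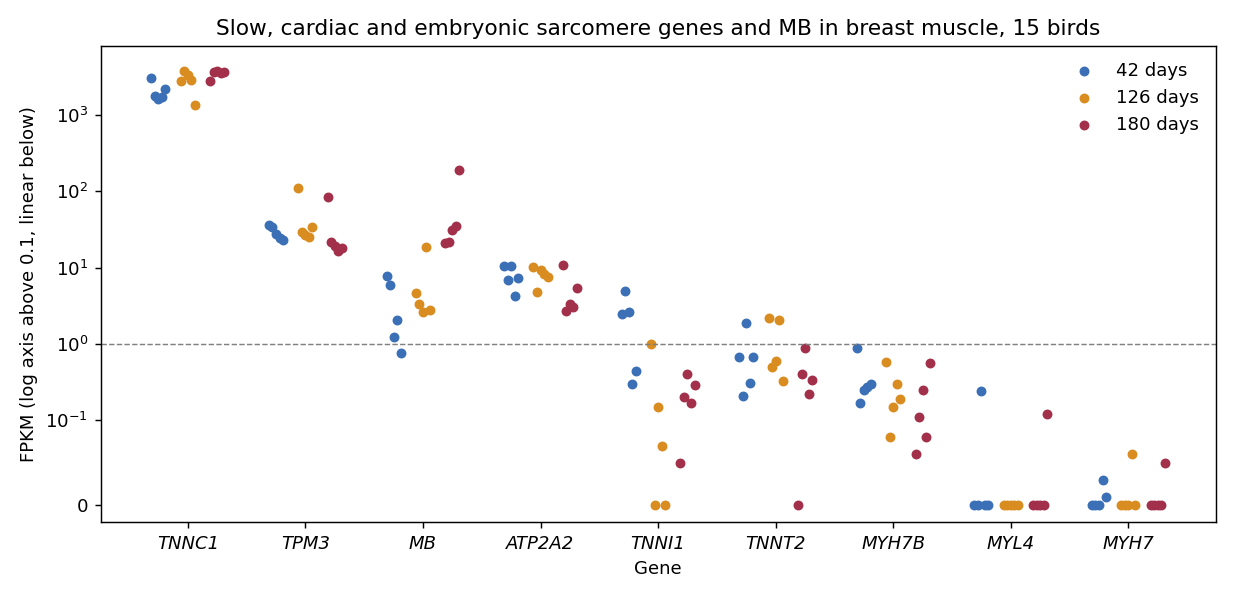
FPKM of each of the 9 genes (x axis, ordered by mean) in 15 birds, with a colour per age. Points are birds, the y axis is logarithmic above 0.1 FPKM and linear below, and the dashed line marks 1 FPKM. TNNC1 lies between 1331.1 and 3790.48 FPKM, while MYH7, MYH7B and MYL4 stay below the dashed line in every bird.

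Among the 9 genes, 1 passed the test in the comparisons that include 180 days, and none between 126 and 42 days. The test was limma on log2(FPKM + 0.1), adjusted by Benjamini-Hochberg over every gene name that averaged 0.5 FPKM or more in the 10 birds compared, at a threshold of 0.05. Between 126 and 42 days, 6 of the 9 genes could be tested and 0 were called by limma, against 3.21% of all genes tested (369 of 11482, with 0.644% higher and 2.57% lower at 126 days). At an unadjusted p under 0.05, limma counted 0 higher and 1 lower at 126 days, as did the exact permutation test. The lower gene was TNNI1, which averaged 0.5 FPKM or more only through the 42-day-old hens. It could hardly count other than lower, so this count is no separate support. At 180 against 42 days limma counted 2 higher and 1 lower, again TNNI1. At 180 against 126 days it counted 1 higher and 1 lower. Over all genes tested, limma's unadjusted p was under 0.05 with a higher level at the later age in 5.55% of genes at 126 against 42 days, 4.86% at 180 against 42 days and 8.68% at 180 against 126 days, and with a lower level in 14.1%, 12.8% and 7.11%. Between 126 and 42 days 0 of the 9 genes had birds that did not overlap, against 6.44% of all genes. Between 180 and 42 days, 6 were tested and 1, MB, was called higher at 180 days, against 0.599% of all genes called higher and 3.41% called in either direction. Between 180 and 126 days, 5 were tested and 1, again MB, was called higher at 180 days, against 0.729% of all genes called higher and 1.25% in either direction. MB was also the 1 gene of the 9 whose birds did not overlap, in both comparisons with 180 days. Of all genes tested, 1.21% were higher in every 180-day-old than in every 42-day-old bird, and 2.54% in every 180-day-old than in every 126-day-old bird. The 180-day-old birds serve in both comparisons.

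MB encodes myoglobin and was the member that set the oldest hens apart. Its level was 7.69, 5.95, 1.24, 2.08 and 0.77 FPKM in the 42-day-old hens (replicates 1 to 5), 4.65, 3.39, 2.64, 18.69 and 2.82 FPKM in the 126-day-old hens, and 21.05, 21.62, 31.57, 35.37 and 192.6 FPKM in the 180-day-old hens. All 5 oldest birds were above all 10 younger ones, 1 bird of 180 days was far above the rest, and the ages of 42 and 126 days overlapped. MB averaged 60.4 ± 74.1 FPKM at 180 days and 3.55 ± 3.09 FPKM at 42 days (SD, n = 5 each), and its log2 fold change of 3.93 (SE 0.70, adjusted p = 0.0101 by limma) was the largest rise of the 11692 genes tested. Against the 6.44 ± 6.89 FPKM of the 126-day-old hens, the log2 fold change at 180 days was 3.06 (SE 0.65, adjusted p = 0.0470 by limma), which ranked 6 of 11515 by rise. The exact permutation test gave p = 0.00794 in both comparisons, the smallest p that 5 birds against 5 allow. At 126 against 42 days, MB had a log2 fold change of 0.88 (SE 0.66, adjusted p = 0.494 by limma).

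The rise of MB between 42 and 180 days was called in 10 of 10 fits that left out 1 bird. Without replicate 5, the bird at 192.6 FPKM, its log2 fold change at 180 against 42 days was 3.36 (adjusted p = 0.0167 by limma). The call at 180 against 126 days was close to the threshold and held in 2 of 10 such fits, those without replicate 4 of the 126-day-old or replicate 1 of the 180-day-old hens. In these 10 fits the adjusted p lay between 0.0290 and 0.11, and without replicate 5 of the 180-day-old hens it was 0.0699 at a log2 fold change of 2.49.

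Of the 16 genes listed as oxidative partners of myoglobin, 12 were found and tested. Like the other lists here, this one was drawn up with earlier results of these data known, so its counts are no independent support. At 180 against 42 days, 2 were called higher by limma and 0 lower, beside 0.599% and 2.81% of all genes. At an unadjusted p under 0.05, 3 were higher and 1 lower, beside 4.86% and 12.8% of all genes. The list's median log2 fold change was -0.19, beside -0.13 over all genes. The 2 called were small heat shock proteins of muscle, which protect proteins of the contractile apparatus. HSPB7 was at 134.82 to 275.29 FPKM in the 180-day-old hens, against 6.63 to 69.37 FPKM in the 42-day-old hens (log2 fold change 2.97, adjusted p = 0.0107 by limma). HSPB1 was at 640.2 to 747.86 FPKM at 180 days, against 174.7 to 413.36 FPKM at 42 days (log2 fold change 1.66, adjusted p = 0.00390 by limma). Both sets of ranges were apart, and both calls held in 10 of 10 fits without 1 bird. HSPB7 was also the 1 gene of the list called at 180 against 126 days, with a log2 fold change of 2.26 and an adjusted p of 0.0453 by limma, although without 1 bird this call held in only 3 of 10 fits and its adjusted p reached 0.106. Of all genes, 0.729% were called higher and 0.521% lower in that comparison. At an unadjusted p under 0.05, 2 of the list were higher and 0 lower, beside 8.68% and 7.11% of all genes. The list's median there was -0.06, beside 0.005 over all genes.

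The genes of oxidative metabolism on the list were not called, although CKMT2 came close to the threshold. CKMT2, the mitochondrial creatine kinase of muscle, averaged 619.2 FPKM at 180 days and 255.1 FPKM at 42 days (log2 fold change 1.42, adjusted p = 0.0563 by limma). Its birds of these ages did not overlap, at 456.0 to 829.7 FPKM at 180 days and 78.85 to 387.0 FPKM at 42 days. FABP3, which carries fatty acids in oxidative muscle, averaged 38.5 FPKM at 180 days and 38.7 FPKM at 42 days (log2 fold change 0.03). CS, the citrate synthase of the mitochondrial matrix, averaged 71.2 FPKM at 180 days and 86.6 FPKM at 42 days (log2 fold change -0.27, adjusted p = 0.439 by limma). At 126 against 42 days 0 genes of the list were called by limma, beside 3.21% of all genes. At an unadjusted p under 0.05, 2 were higher and 1 lower, beside 5.55% and 14.1% of all genes. Over the 15 birds MB correlated with HSPB7 at r = 0.526 and with HSPB1 at r = 0.572, but after centring within ages these values were -0.385 and -0.370.

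**Figure D2:**
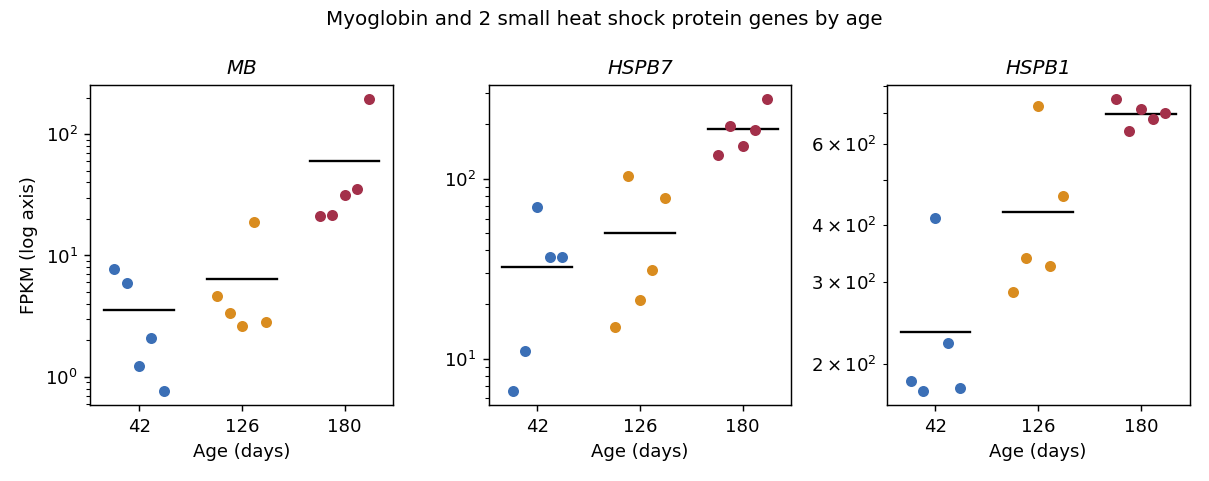
FPKM (y axis, logarithmic) of MB, HSPB7 and HSPB1 by age in days (x axis); points are birds, 5 per age, and black lines are means. The 180-day-old birds lie above all 42-day-old birds in each panel, with MB between 21.05 and 192.6 FPKM at 180 days.

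TNNC1, named for the calcium-binding troponin subunit of slow and cardiac muscle, was among the most abundant transcripts of the muscle. It ranked between 16 and 37 of all gene names in every bird. Its level was 3011.22, 1758.73, 1629.94, 1693.8 and 2161.98 FPKM in the 42-day-old hens, 2741.73, 3790.48, 3289.82, 2853.17 and 1331.1 FPKM in the 126-day-old hens, and 2740.06, 3596.14, 3765.8, 3560.5 and 3661.37 FPKM in the 180-day-old hens. The 180-day-old birds lay close together, except for a lower replicate 1. Birds of 42 days overlapped both other ages. The mean was 3465 ± 413 FPKM at 180 days and 2051 ± 576 FPKM at 42 days (SD, n = 5 each), a log2 fold change of 0.79 (SE 0.20) that did not pass limma's adjusted threshold (adjusted p = 0.0577), with an exact permutation p of 0.0159 that was not adjusted. This value passed once replicate 1 of the 42-day-old hens (log2 fold change 0.94, adjusted p = 0.0277 by limma) or replicate 1 of the 180-day-old hens (0.87, adjusted p = 0.0264 by limma) was left out. These were 2 of 10 fits without 1 bird, in which limma's adjusted p reached 0.1445. Under the 8 other settings 0 called it, and limma's adjusted p reached 0.2659. TNNC1 had log2 fold changes of 0.41 at 126 against 42 days (adjusted p = 0.469 by limma) and 0.38 at 180 against 126 days (adjusted p = 0.537 by limma).

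The fast counterpart TNNC2, the troponin C of fast fibres, was also abundant, but lay below TNNC1 in every 180-day-old bird. It was at 1104.1 to 2326.73 FPKM at 42 days, 1042.17 to 2178.38 FPKM at 126 days and 1391.61 to 1854.27 FPKM at 180 days. TNNC1 made up 42.1% to 66.2% of the summed level of the pair at 42 days, 37.9% to 74.1% at 126 days and 66.3% to 72.2% at 180 days. Replicate 5 of the 126-day-old hens, with the lowest share and the lowest TNNC1 level, also had the highest TNNC2 level of its age. Across the 15 birds the levels of both genes on the log2 scale correlated at r = -0.414 (Spearman's rho = -0.229), given as a description.

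Slow and cardiac genes differed widely in level beside it. TNNI1, the partner that binds slow troponin C in slow fibres, was at or below 4.95 FPKM in every bird. MYL2, the regulatory light chain of slow and ventricular myosin, was listed at 0 FPKM in all 15 birds, and MYL3, the essential light chain of slow and ventricular myosin, was at most 0.69 FPKM. ANKRD1, a stretch-responsive ankyrin repeat protein of heart muscle, in contrast ranged from 25.43 to 4101.26 FPKM over the 15 birds, and its highest value was above the highest of TNNC1. The name TNNC1 covered 2 entries of the table, of which 1 carried 99.96% of the summed level, at 1330.98 to 3790.48 FPKM, and the other lay between 0 and 8.50 FPKM. The entries are given without gene IDs or positions, so that it could not be checked here which locus the name stands for.

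**Figure D3:**
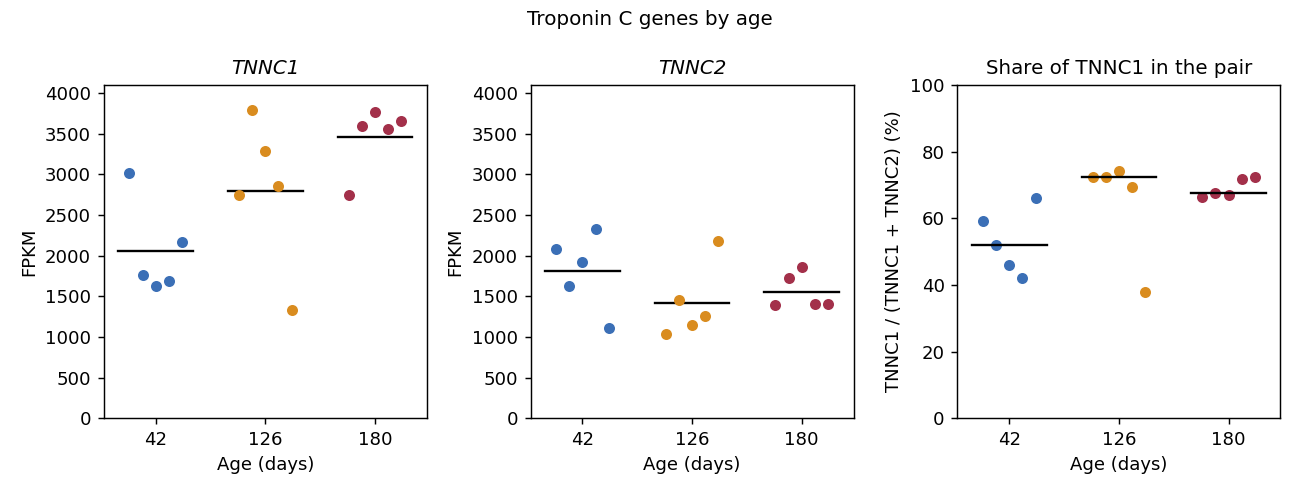
FPKM of TNNC1 and TNNC2 and the share of TNNC1 in their summed FPKM in percent (y axes, from 0) by age in days (x axes); points are birds, 5 per age, black lines are means for FPKM and medians for the share. The share spans 37.9% to 74.1% at 126 days and 66.3% to 72.2% at 180 days.

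TNNI1, the inhibitory troponin subunit of slow fibres, was on only in birds of 42 days. Its level was 2.44, 4.95, 2.61, 0.30 and 0.44 FPKM at 42 days, 0.99, 0, 0.15, 0.07 and 0 FPKM at 126 days and 0.05, 0.20, 0.41, 0.17 and 0.29 FPKM at 180 days. In 3 of the youngest birds it stood above all older birds, and in the other 2 it lay among them. TNNI1 averaged 0.242 ± 0.423 FPKM at 126 days and 2.15 ± 1.9 FPKM at 42 days (SD, n = 5 each), with a log2 fold change of -2.80 (SE 0.82), an adjusted p of 0.0885 by limma and an exact permutation p of 0.0317. Leaving out replicate 1 of the 126-day-old hens gave -3.38 (adjusted p = 0.0332 by limma), and a fit of all 3 ages together gave an adjusted p of 0.0493, so that the side of the threshold depended on these choices. At 180 and 42 days the values averaged 0.224 ± 0.135 FPKM and 2.15 ± 1.9 FPKM, with a log2 fold change of -2.32 (SE 0.69, adjusted p = 0.0942 by limma, exact permutation p = 0.0159). In both comparisons with 42 days TNNI1 reached limma's filter of 0.5 FPKM only through the 42-day-old hens, the age at which it was high. Beside its fast counterpart TNNI2, TNNI1 made up at most 0.232% of the summed level at 42 days, 0.0485% at 126 days and 0.0141% at 180 days.

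TNNT2, the cardiac troponin subunit that anchors the complex to tropomyosin and that embryonic skeletal muscle also makes, was low at all ages. It was at 0.67, 0.21, 1.86, 0.31 and 0.67 FPKM at 42 days, 2.18, 0.50, 0.60, 2.05 and 0.33 FPKM at 126 days, and 0, 0.41, 0.88, 0.22 and 0.34 FPKM at 180 days. All ages overlapped. TNNT2 had a log2 fold change of -1.40 (SE 0.68) at 180 against 126 days (adjusted p = 0.350 by limma), 0.52 at 126 against 42 days and -0.88 at 180 against 42 days, none of them called. It had 8 entries, and the one with the highest mean reached 1.61, 1.85 and 1.95 FPKM in the 3 birds where TNNT2 was on and at most 0.02 FPKM elsewhere. Its share of the pair with the fast TNNT3 was at most 0.0219%.

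Several other slow and cardiac genes were lower in the older hens, as counted over a list of 21 such partners, of which 17 were found. At 180 against 42 days limma called 0 of 13 tested higher and 3 lower (6 lower and 1 higher at an unadjusted p under 0.05), against 2.81% of all genes called lower and 12.8% lower at an unadjusted p under 0.05. The median log2 fold change of the list was -0.60, beside -0.13 over all genes. The 3 were TPM2 (log2 fold change -3.0, adjusted p = 0.0154), ACTC1 (-3.09, adjusted p = 0.0212) and MYBPC3 (-2.91, adjusted p = 0.00542), all by limma. TPM2 encodes beta-tropomyosin, ACTC1 the cardiac actin that is also the actin of immature skeletal muscle, and MYBPC3 the cardiac myosin-binding protein C. MYBPC3 averaged 1.352 FPKM at 42 days, 0.306 FPKM at 126 days and 0.07 FPKM at 180 days. It thus reached the filter of 0.5 FPKM only through the age at which it was high. A gene let in this way could hardly be called other than lower, so its place in the counts is no separate support.

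TPM2 fell to 15.52, 13.19, 13.68, 15.11 and 10.77 FPKM in the 180-day-old hens, against 77.69, 176.63, 250.64, 230.74 and 19.33 FPKM in the 42-day-old hens, without overlap. ACTC1 was at 1.40 to 3.12 FPKM in 4 birds of 180 days and at 22.40 FPKM in replicate 5, against 14.60 to 69.72 FPKM at 42 days, so that this 1 bird overlapped the younger ones. MYBPC3 was at 0.05 to 0.09 FPKM at 180 days and 0.87 to 3.09 FPKM at 42 days. Without 1 bird, the call of TPM2 held in 10 of 10 fits. That of MYBPC3 held in the 9 in which it still reached the filter, which it did only through the 42-day-old hens. That of ACTC1 held in 4 of 10, with an adjusted p of at most 0.0572. At 126 against 42 days limma called 0 higher and 1 lower of 13, TPM2, at 9.94 to 34.08 FPKM against 19.33 to 250.64 FPKM (log2 fold change -2.65, adjusted p = 0.0455). Of all genes, 2.57% were called lower in this comparison. That call held in 2 of 10 fits without 1 bird, with the adjusted p reaching 0.113. The list's median was then -1.15, beside -0.15 over all genes, and 7 genes were lower and 1 higher at an unadjusted p under 0.05, beside 14.1% and 5.55% of all genes.

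Over the 15 birds TNNI1 correlated with TPM2 at r = 0.690 (rho = 0.588), with ACTC1 at r = 0.685 (rho = 0.572) and with MYBPC3 at r = 0.526 (rho = 0.616) on the log2 scale. After centring within ages the r was 0.286 with TPM2, 0.411 with ACTC1 and -0.085 with MYBPC3. The satellite cell and myoblast markers moved with the same ages, with sums of 5.02 to 11.41 FPKM at 126 days and 3.29 to 9.33 FPKM at 180 days, both below the 15.84 to 25.61 FPKM at 42 days. The 6 fibroblast markers summed to 39.41 to 219.12 FPKM at 180 days, below the 245.76 to 815.63 FPKM at 42 days, while the 193.85 to 1271.75 FPKM at 126 days overlapped the youngest birds. Replicate 5 had the lowest TPM2 and ACTC1 levels and the lowest fibroblast sum of the 42-day-old hens. Its satellite cell and myoblast sum of 25.61 FPKM was the highest of that age. Its skeletal muscle marker sum of 4925.85 FPKM was the lowest of all 15 birds. The part of these markers in the differences was not tested.

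**Figure D4:**
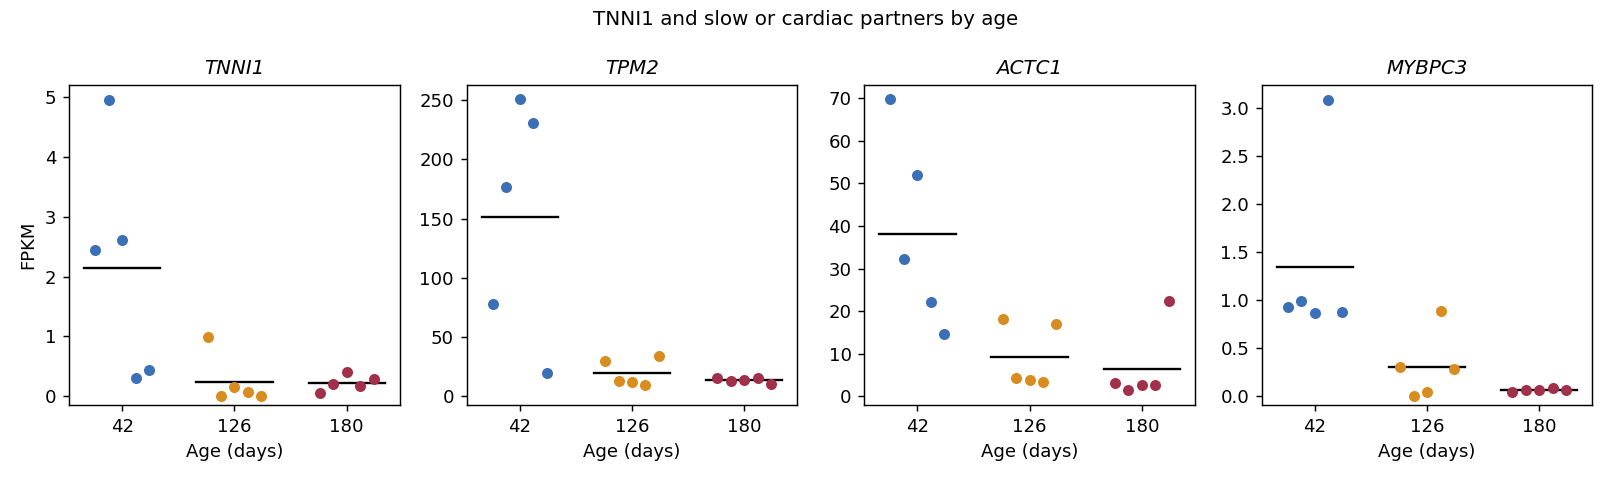
FPKM (y axes, linear, with a scale of its own for each gene) of TNNI1, TPM2, ACTC1 and MYBPC3 by age in days (x axis); points are birds, 5 per age, and black lines are means. TPM2 lies at 19.33 to 250.64 FPKM at 42 days and at 10.77 to 15.52 FPKM at 180 days, and TNNI1 exceeds 1 FPKM only in 3 birds of 42 days.

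The 180-day-old hens differed from the 126-day-old hens in other partners. Limma called 1 of 12 higher and 1 lower, against 0.729% and 0.521% of all genes, with a median log2 fold change of 0.02. At an unadjusted p under 0.05, 2 were higher and 1 lower, beside 8.68% and 7.11% of all genes. ANKRD2, a stretch-responsive ankyrin repeat protein abundant in slow fibres of mammals, was at 6.64 to 28.49 FPKM at 180 days, against 0.06 to 1.17 FPKM at 126 days (log2 fold change 4.20, adjusted p = 0.0108 by limma). SMYD1, a methyltransferase of heart and skeletal muscle needed for myosin assembly, was at 71.82 to 134.02 FPKM at 180 days, against 216.82 to 269.39 FPKM at 126 days (log2 fold change -1.33, adjusted p = 0.0108 by limma). Neither gene overlapped between these ages, and both calls held in 10 of 10 fits without 1 bird. ANKRD2 did not move in 1 direction with age, since at 42 days it ranged from 0.52 to 18.07 FPKM.

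Some genes on the list of slow and cardiac partners were abundant in this white muscle at every age. A place on the list does not show that a gene is a slow or cardiac form. CASQ2, the cardiac calcium store protein that slow fibres also use, averaged 973.4 FPKM at 42 days, 596.6 FPKM at 126 days and 533.1 FPKM at 180 days. Its log2 fold change at 180 against 42 days was -0.84 (adjusted p = 0.0601 by limma). ACTN2, an alpha-actinin of the Z-disc, was at 747.17 to 2314.94 FPKM over all birds. SLN, the sarcolipin that inhibits the calcium pump, was at 165.03 to 504.91 FPKM.

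The myosin genes among the members, MYH7, MYH7B and MYL4, were at or near 0. This does not extend to other heavy chains: MYH1B, listed here with the fast partners, was at 143.29 to 939.52 FPKM over the 15 birds. MYH7 carries the name of the slow and beta-cardiac myosin heavy chain of mammals, and its chicken entry in RefSeq has the other name AMHC1. It was listed at 0 in 11 of 15 birds and was at most 0.06 FPKM, in replicate 4 of the 126-day-old hens. MYH7B, a related heavy chain that RefSeq also names SSMHC, was above 0 in every bird, with 0.90, 0.17, 0.25, 0.27 and 0.30 FPKM at 42 days, 0.58, 0.08, 0.15, 0.30 and 0.19 FPKM at 126 days and 0.06, 0.11, 0.25, 0.08 and 0.57 FPKM at 180 days. The 3 ages of MYH7B overlapped, with exact permutation p values of 0.429, 0.238 and 0.603 at 126 against 42, 180 against 42 and 180 against 126 days.

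MYL4, the essential myosin light chain of embryonic muscle and of the atrium, was listed at 0 in 13 of 15 birds, with 0.24 FPKM in replicate 3 of the 42-day-old and 0.12 FPKM in replicate 5 of the 180-day-old hens. MYL1, the essential light chain of fast fibres, was between 7309.69 and 15407.97 FPKM in the same birds. MYH7, MYH7B and MYL4 did not reach the mean of 0.5 FPKM in any comparison and were not tested across genes. FPKM hold no read counts, so that the number of reads below which such a gene would be listed at 0 is not known.

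TPM3, a tropomyosin of slow fibres whose gene also makes the short forms of the cytoskeleton in non-muscle cells, was second to TNNC1 by its mean over the 15 birds. At 180 days the median of MB, 31.57 FPKM, was above that of TPM3, 19.43 FPKM, although MB was below TPM3 in replicates 1 and 2. The level of TPM3 was 36.16, 34.44, 27.63, 24.36 and 23.08 FPKM at 42 days, 111.38, 29.10, 26.72, 25.06 and 33.83 FPKM at 126 days, and 84.23, 21.69, 19.43, 16.70 and 18.19 FPKM at 180 days. In each of the older groups replicate 1 stood far above the other birds, and those were the birds with the highest macrophage marker sums. Their erythrocyte, endothelial, fibroblast, adipocyte, T cell and B cell marker sums were the highest of their ages as well. TPM3 was not called in any comparison, with log2 fold changes of 0.38 (SE 0.36) at 126 against 42 days, -0.17 (SE 0.39) at 180 against 42 days and -0.55 (SE 0.49) at 180 against 126 days. Without replicate 1 of the 180-day-old hens, the value at 180 against 42 days was -0.60 (adjusted p = 0.0631 by limma). Without replicate 1 at both ages, that at 180 against 126 days was -0.59 (adjusted p = 0.0523 by limma). Beside TPM1, the alpha-tropomyosin of fast and cardiac muscle, it made up 0.132% to 0.979% of the summed level. The RefSeq table of the chicken assembly GRCg7b, in which all 9 members were found by symbol, also lists TPM3 as another name of TPM2. The 8 entries summed as TPM3 carry no gene IDs, so that it could not be checked here whether all of them stand for the TPM3 locus, and the levels, ranks and correlations given for TPM3 hold for the name.

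ATP2A2 encodes SERCA2, the pump that returns calcium to the sarcoplasmic reticulum in slow and cardiac muscle and, as another splice form, in most other cells. Its level was 10.60, 6.86, 10.53, 4.21 and 7.41 FPKM at 42 days, 10.30, 4.77, 9.19, 8.32 and 7.55 FPKM at 126 days, and 10.74, 2.70, 3.36, 3.1 and 5.41 FPKM at 180 days. Replicate 1 of the oldest hens was the highest of all 15 birds, and the other 4 lay at the lower end. ATP2A2 averaged 5.06 ± 3.34 FPKM at 180 days and 7.92 ± 2.70 FPKM at 42 days (SD, n = 5 each), with a log2 fold change of -0.76 (SE 0.38, adjusted p = 0.328 by limma). Against the 8.03 ± 2.09 FPKM of the 126-day-old hens the value at 180 days was -0.81 (SE 0.36, adjusted p = 0.300 by limma). Without replicate 1 of the 180-day-old hens these became -1.08 (adjusted p = 0.0464) and -1.12 (adjusted p = 0.0416), both past limma's threshold, and without replicate 1 of the 126-day-old hens as well the value at 180 against 126 days was -1.02 (adjusted p = 0.0574). At 126 against 42 days the log2 fold change was 0.05 (SE 0.28).

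Both genes followed the macrophage markers across birds. The log2 level of TPM3 correlated with the summed macrophage markers at r = 0.894 (rho = 0.836) and that of ATP2A2 at r = 0.579 (rho = 0.632) over 15 birds that share their libraries. CD74 made up 1122.08 FPKM of the macrophage sum in replicate 1 of the 180-day-old hens and 496.2 FPKM in replicate 1 of the 126-day-old hens. C1QA, C1QB and C1QC were at 7.68, 7.44 and 8.03 FPKM in the first and 19.01, 16.57 and 25.62 FPKM in the second. CSF1R and MPEG1 were higher in the first, at 35.05 and 17.48 FPKM against 14.94 and 5.77 FPKM. Those birds also had the highest erythrocyte sums, at 162.63 and 280.69 FPKM, and endothelial sums, at 123.17 and 177.17 FPKM. Their fibroblast sums, at 219.12 and 1271.75 FPKM, were the highest of their ages. The same held for their adipocyte, T cell and B cell sums, so that macrophages are not singled out. The part of other cell types in these levels was not tested. ATP2A1, the calcium pump gene of fast fibres, was not found under that name, so that ATP2A2 could not be set beside it.

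**Figure D5:**
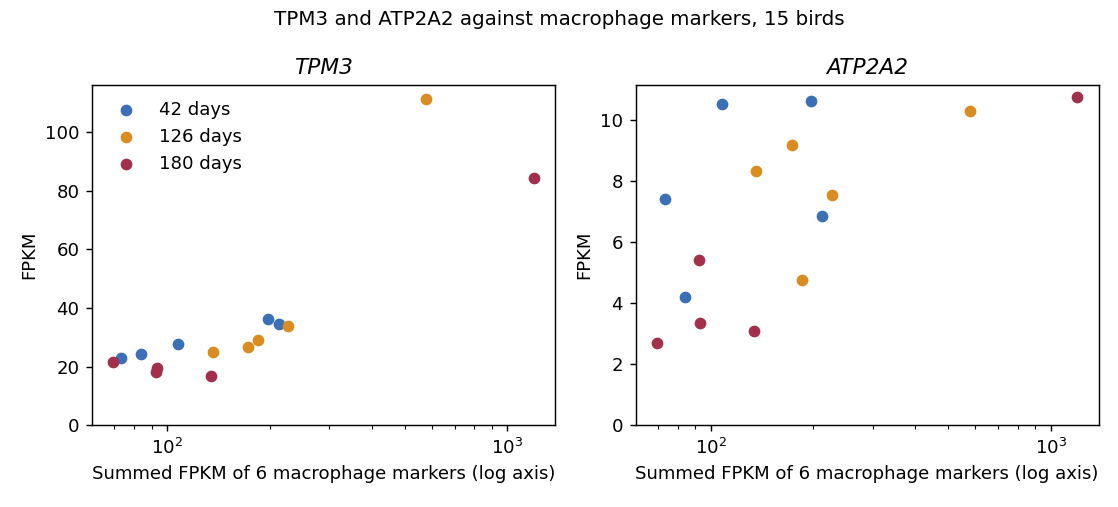
FPKM of TPM3 and ATP2A2 (y axes, from 0) against the summed FPKM of 6 macrophage markers (x axis, logarithmic) in 15 birds, with a colour per age. The birds at 578.11 and 1197.76 FPKM of macrophage markers hold the highest TPM3 values, 111.38 and 84.23 FPKM.

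The members did not move as a block. Over the 15 birds and the 15 pairs of the 6 genes with enough expression, the closest were TPM3 and ATP2A2, with r = 0.643 (rho = 0.754) on the log2 scale and 0.645 after centring within ages. TNNC1 and MB followed at r = 0.628 (rho = 0.629), a value that was 0.269 within ages. The other pairs lay between -0.396 and 0.279. These values are descriptions over points that share library and age.

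The genes most like each member were sought among 8646 named genes that averaged 1 FPKM or more, by Pearson's r of log2 levels over the 15 birds. TPM3 was followed most closely by DSTN, an actin-depolymerising factor (r = 0.986), DAP (r = 0.977) and TMSB4X, the actin-binding thymosin beta of non-muscle cells (r = 0.976). All 3 kept an r of at least 0.981 within ages. TNNC1 was nearest to COPS9 (r = 0.868), MAIP1 (r = 0.824) and FHL2 (r = 0.816), a LIM domain protein of heart and muscle. ATP2A2 was nearest to MFSD14A (r = 0.935), HACD3 (r = 0.912) and MICALL2 (r = 0.899). For MB the nearest were PIK3R6 (r = 0.862), MFN2 (r = 0.846), which fuses mitochondria, and HOMER3 (r = 0.836). The MB values were lower within ages, at 0.565, 0.723 and 0.672.

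Of 20 fast partners listed, 10 were found, and limma called 0 in each of the 3 comparisons, beside 3.21%, 3.41% and 1.25% of all genes at 126 against 42, 180 against 42 and 180 against 126 days. In a list of this length a count of 0 is near these shares. At an unadjusted p under 0.05 there was 1 lower gene at 126 against 42 days, 1 lower at 180 against 42 days and 0 at 180 against 126 days, beside 14.1% and 12.8% of all genes lower in the comparisons with 42 days and 15.8% in either direction in the other. Their median log2 fold changes were 0.00, -0.13 and 0.11, beside -0.15, -0.13 and 0.01 over all genes tested.

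Among 27 regulators of fibre type, 24 were found and 21 tested. At 126 against 42 days limma called 1 higher and 6 lower, against 0.644% and 2.57% of all genes. VGLL2, a cofactor of TEAD factors in skeletal muscle, was the 1 called higher (log2 fold change 1.98, adjusted p = 0.0285 by limma). Those called lower by at least 1 on the log2 scale were TEAD4 (-1.56, adjusted p = 0.0154), a TEAD factor of muscle, EYA1 (-1.29, adjusted p = 0.0365), a transcriptional cofactor that promotes fast fibres in the mouse, and TEAD1 (-1.12, adjusted p = 0.0195), all by limma. HDAC4 (-0.75, adjusted p = 0.0335 by limma) and MEF2A (-0.59, adjusted p = 0.0348 by limma) were called lower by less than 1. SOX6, a repressor of slow genes, was also called lower at 126 days (-0.92, adjusted p = 0.0218 by limma). At an unadjusted p under 0.05, 3 regulators were higher and 8 lower in this comparison, beside 5.55% and 14.1% of all genes. At 180 against 126 days SOX6 was called higher (0.91, adjusted p = 0.0361 by limma) and was the 1 regulator called, against 0.729% of all genes called higher and 0.521% lower. There 3 were higher and 3 lower at an unadjusted p under 0.05, beside 8.68% and 7.11% of all genes. Without 1 bird, the call of TEAD4 at 126 against 42 days held in 10 of 10 fits, that of TEAD1 in 7, SOX6 in 5 and VGLL2 in 4. Those of EYA1, HDAC4 and MEF2A held in 2 each, as did that of SOX6 at 180 against 126 days. With only the highest entry of each name, all of these calls were lost, that of TEAD4 at an adjusted p of 0.088 by limma. At 180 against 42 days limma called 0 of the 21, beside 3.41% of all genes. At an unadjusted p under 0.05, 0 were higher and 7 lower, beside 4.86% and 12.8% of all genes.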

How the data were processed

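Breast muscle RNA of 15 hens, 5 per age, was sequenced as paired-end reads after selection of polyA RNA. The authors trimmed the reads with Cutadapt, mapped them with HISAT2 2.2.1 and, per the submitters' processing notes, used StringTie 2.1.6. The deposited values are FPKM with 2 decimals, and the genome build is not given in the sources used here. Read counts were not used here, so that the depth per bird is unknown and no counting interval is given. The summed FPKM per bird lay between 413638 and 481698, with 15739 to 17479 gene names above 0, so that the values had not been scaled to a common sum.

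The 48836 entries carry gene names only and were summed by name to 23599 names. DESeq2, which the authors ran, takes counts and could not be applied to FPKM. Here limma 3.58.1 (R 4.3.3; lmFit, eBayes with trend) compared 2 ages at a time on log2(FPKM + 0.1), over names averaging 0.5 FPKM or more in the 10 birds, adjusted by Benjamini-Hochberg over all of them. Fold changes on this scale understate changes of low genes, and each is the later age over the earlier. Called means an adjusted p under 0.05. Each member was also tested by a two-sided exact permutation test of mean log2 levels. These 27 tests were not adjusted, and 5 gave a p under 0.05. All 252 divisions of 10 birds were used, so that the smallest p is 0.00794. These ran in Python 3.11.15 (scipy 1.17.1, numpy 2.4.6, pandas 2.3.3). The limma procedure was tested on simulated, normally distributed values in which 200 genes were changed by 2 on the log2 scale. It recovered 77.5% of them at 126 against 42 days, 74% at 180 against 42 days and 79% at 180 against 126 days. Other genes called numbered 10, 7 and 12. Birds set far apart were not simulated, and a gene not called may still differ.

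The members and gene lists were chosen with earlier results of these data known. All members were described, with the fast partner of TNNC1, TNNI1, TNNT2, MYL4 and TPM3, the list genes called with a log2 fold change of 1 or more in size or on which a result turns (up to 6 per list and comparison), and the 3 genes most like each member of at least 1 FPKM. FABP3, CS, CASQ2, ACTN2, SLN, ANKRD1, MYL2, MYL3, MYH1B, HDAC4 and MEF2A were named after their values had been seen. As alternatives a pseudocount of 1, no filter or a higher one (1 FPKM), quantile normalization, rescaling to a sum of 1000000, a single fit of the 3 ages, a block for the replicate number, only the highest entry of each name, and each bird left out were tried. Leaving out replicate 1 at both 126 and 180 days was chosen after seeing the data. The labels give no batch or date apart from the age at slaughter, and no batch could be examined.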

Additional observations from a re-analysis of the deposited data

Results flagged for a closer look

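Of 26 groups of 5 birds with unequal values, 12 had 1 bird whose gap to its nearest neighbour exceeded 0.71 of the group's range, Dixon's limit. Chance passes this limit in about 1 of 20 groups of normally distributed values. The limit was applied to FPKM without a log transform, which need not be normally distributed. The 12 groups can therefore not be set against that share. In MB, replicate 5 of the 180-day-old hens stood at 192.6 FPKM with the next bird at 35.37 FPKM, and replicate 4 of the 126-day-old hens at 18.69 FPKM with the next at 4.65 FPKM. In TPM3, replicate 1 stood apart at 126 days, at 111.38 FPKM with the next at 33.83 FPKM, and at 180 days, at 84.23 FPKM with the next at 21.69 FPKM. The lowest bird was the one set apart in TNNC1 at 180 days, replicate 1 at 2740.06 FPKM with the next at 3560.5 FPKM.

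The other 7 groups were of low genes. TNNI1 was at 0.99 FPKM in replicate 1 of the 126-day-old hens, TNNT2 at 1.86 FPKM in replicate 3 of the 42-day-old hens and MYH7B at 0.90 FPKM in replicate 1 of the 42-day-old hens. MYH7 was at 0.06 FPKM in replicate 4 of the 126-day-old and 0.05 FPKM in replicate 5 of the 180-day-old hens, and MYL4 at 0.24 FPKM in replicate 3 of the 42-day-old and 0.12 FPKM in replicate 5 of the 180-day-old hens, with the other birds of these 4 groups listed at 0. In these 4 groups the gap equals the range at any value above 0, so that the flag was fixed in advance.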

How the results depend on the processing

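MB at 180 against 42 days was called under all 8 other settings and in all 10 fits without 1 bird, with log2 fold changes of 3.36 to 4.33. At 180 against 126 days the number of members called was 0 with a pseudocount of 1, no filter, quantile normalization or only the highest entry, and ranged from 0 to 2 without 1 bird. It ranged from 1 to 3 at 180 against 42 days, and at 126 against 42 days from 0 to 1, with 1 in the fit of all 3 ages. Over all genes, 369, 399 and 144 were called at 126 against 42, 180 against 42 and 180 against 126 days. Without 1 bird these ranged from 80 to 469, 183 to 1036 and 15 to 501, highest without replicate 1 of the 126-day-old hens in the first and of the 180-day-old hens in the other comparisons. Without a filter, 204 and 65 were called at 126 against 42 and 180 against 126 days, and with only the highest entry of each name 56, 189 and 20. Without replicate 1 at 126 and 180 days, 492 were called at 180 against 126 days. Quantile normalization moved the median of all genes at 126 against 42 days to -0.01, with 171 genes higher and 225 lower against 74 and 295, and gave 36 and 64 against 84 and 60 at 180 against 126 days.

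The sign of small values turned for ATP2A2 at 126 against 42 days, to -0.0076 with rescaled FPKM and, without 1 bird, to -0.16, -0.05 or -0.01 in a range of -0.16 to 0.22. For TPM3 it turned to -0.0085 without replicate 1 of the 126-day-old hens, in a range of -0.0085 to 0.53, and to 0.32 at 180 against 42 days with only the highest entry. The replicate numbers only name birds, and deviations of same-numbered birds correlated between -0.128 and 0.320. With the number as a block, 295, 325 and 392 genes and 0, 1 and 1 members were called, and not every bird correlated best with its own number. The cause of these shifts was not tested. With 5 birds per age and no read counts, levels near 0 FPKM carry no known counting error.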
